A study of Mus musculus with 12 samples.

Results

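The 10 genes described here encode the ligands of PD-1 and the surface molecules by which myeloid cells stimulate or restrain T cells, namely Pdcd1lg2, Cd274, Cd80, Cd86, Cd40, Icosl, Cd83, Havcr2, Lgals9 and Cd276. They were chosen by gene symbol, 10 of the 37775 symbols in the expression table, and 10 of 10 passed the expression filter that left 22118 genes for testing. Bulk RNA-seq covered 4 Mo-Mac fractions, each sampled as 3 of the 12 libraries. All came from WT BALB/c mice with IgE-mediated chronic allergic inflammation (IgE-CAI), a skin allergy model in which male mice aged 7 to 12 weeks receive 300 μg of anti-TNP IgE and, the next day, an ear injection of 10 μg of TNP-conjugated ovalbumin. On day 5 after the challenge, CD45+CD11b+SiglecF-Ly6G- cells of the ear were sorted by Ly6C and PD-L2 into Ly6Chi PD-L2lo classical monocytes, Ly6Chi PD-L2hi early CMDMs (classical monocyte-derived macrophages), Ly6Clo PD-L2hi late CMDMs and Ly6Clo PD-L2lo resident-like macrophages. In the labels these fractions are Classical mono, Early CMDM, Late CMDM and Resident-like. Each library was made from 5000 to 80000 cells. How many mice gave a library is not given in the sources used here, so the p-values below measure the spread between libraries, which may be technical.

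T cells need a second signal beside the antigen receptor, and the B7 family on antigen-presenting cells provides it. CD80 and CD86 bind CD28, which stimulates, and CTLA-4, which inhibits. PD-L1, encoded by Cd274, and PD-L2, encoded by Pdcd1lg2, bind PD-1 and dampen T cell responses. PD-L2 is induced in macrophages by IL-4 through STAT6, whereas PD-L1 is best known as a target of interferon-gamma. CD40 receives CD40L from T cells and signals through TRAF proteins to NF-kB, which also drives Cd80, Cd86 and Cd83. ICOSL engages ICOS, TIM-3 (Havcr2) and its ligand galectin-9 (Lgals9) restrain immune cells, and B7-H3 (Cd276) is a B7 family member without a settled receptor.

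PD-L2 protein set the gates, so the Pdcd1lg2 transcript was not independent of the sort and its levels are given as a description. The other 9 genes took no part in the gating. Cd274 lies on chromosome 19 from 29367455 to 29388095 and Pdcd1lg2 on the same chromosome from 29410919 to 29471161, both on the plus strand of GRCm38 (GENCODE M21). The gap between them was 22823 bases with 0 annotated genes in it. Cd86 (chromosome 16, 36603869 to 36666081, minus strand) and Cd80 (chromosome 16, 38455561 to 38496335, plus strand) were 1789479 bases apart, with 46 genes between them. Havcr2 (46454935 to 46481255, plus strand) and Lgals9 (78962974 to 78984946, minus strand) lay on chromosome 11. The remaining genes were Cd40 on chromosome 2 (165055627 to 165072948, plus strand), Icosl on chromosome 10 (78069302 to 78083913, plus strand), Cd83 on chromosome 13 (43784775 to 43803132, plus strand) and Cd276 on chromosome 9 (58524298 to 58555437, minus strand).

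The start regions of the neighbouring PD-1 ligand genes and of Lgals9 are shown because the neighbours had different levels across the fractions and because these windows held, or lacked, the motifs searched. Each window runs from 250 bases before to 50 bases after the RefSeq start in GRCm38.p6. RefSeq windows matched 7 of the 10 genes, and those for Cd86, Cd40 and Cd83 were not matched. The 3 windows are Pdcd1lg2 at chr19:29410669-29410968 (plus strand), Cd274 at chr19:29367188-29367487 (plus strand) and Lgals9 at chr11:78984875-78985174 (minus strand), with motif matches in capitals.
Pdcd1lg2: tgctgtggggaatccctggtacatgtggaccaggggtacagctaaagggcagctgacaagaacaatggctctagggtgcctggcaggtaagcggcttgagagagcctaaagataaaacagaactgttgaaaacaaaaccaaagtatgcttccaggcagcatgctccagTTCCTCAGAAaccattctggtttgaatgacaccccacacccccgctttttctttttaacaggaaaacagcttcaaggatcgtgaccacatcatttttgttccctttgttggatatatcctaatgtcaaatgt
Cd274: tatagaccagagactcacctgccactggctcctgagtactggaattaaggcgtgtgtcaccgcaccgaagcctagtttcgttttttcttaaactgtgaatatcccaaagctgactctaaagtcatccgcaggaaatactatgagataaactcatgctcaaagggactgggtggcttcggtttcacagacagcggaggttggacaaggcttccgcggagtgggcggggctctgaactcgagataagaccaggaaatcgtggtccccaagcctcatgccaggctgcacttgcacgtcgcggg
Lgals9: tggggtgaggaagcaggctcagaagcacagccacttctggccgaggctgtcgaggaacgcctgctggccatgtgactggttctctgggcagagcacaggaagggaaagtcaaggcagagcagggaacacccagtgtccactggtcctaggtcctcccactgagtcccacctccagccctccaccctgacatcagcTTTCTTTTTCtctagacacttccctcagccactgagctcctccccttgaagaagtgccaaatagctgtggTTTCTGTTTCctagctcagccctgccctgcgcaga

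A STAT6-type motif, TTCNNNNGAA, was found in 1 of the 7 windows, that of Pdcd1lg2, as TTCCTCAGAA with its first base at -82 from the start. It reads as a match on both strands, and 6.95% of 32851 RefSeq windows of this length held such a motif. The NF-kB-type motif GGGANTTCC, present in 1.68% of all windows, was in 0 of the 7. Only this spelling was searched, so other forms of an NF-kB site were not counted. The Lgals9 window held 2 matches to an interferon response element type, GAAANNGAAA, on the strand opposite to the printed one, with first bases at -55 and 16 from the start, and 3.44% of all windows held at least 1. Both strands were searched, and apart from the Pdcd1lg2 site, which counts on both, no matches overlapped. A match in letters describes the window and says nothing of binding.

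Total counts ranged from 12537178 to 19844113 per library, so that 3 counts, the upper limit allowed by a count of 0, corresponded to 0.151 to 0.239 CPM (counting error only, since PCR copies of a molecule are counted as separate reads). The lowest count of any of the 10 genes was 62, for Cd276 in a late CMDM library, and the highest was 28790, for Cd83 in a resident-like library. The fractions differed in RNA of other cells. Summed keratinocyte markers were 17100 to 27300 CPM in early CMDMs, against 1870 to 4050 for classical monocytes, 3110 to 3650 for late CMDMs and 2300 to 2610 for the resident-like fraction, and 6 of 6 were higher in early CMDMs than in classical monocytes. Summed levels of 10 leukocyte genes, such as Ptprc (CD45) and Laptm5, were lowest in early CMDMs, where their median was 1930 CPM against 6140 for classical monocytes, 4040 for late CMDMs and 5790 for the resident-like fraction. These 10 genes did not fall alike between classical monocytes and early CMDMs, with Fcer1g at 720 and 462 CPM and Ptprc at 726 and 114. Their median log2 fold change there was -1.56, against -0.55 for 10 monocyte and macrophage markers. A scale set by leukocyte genes thus depends on the genes taken. The part of the keratinocyte RNA in the levels below was not tested. In bulk samples, fewer cells of a type and less RNA per cell cannot be told apart. The genes were therefore also set against these 10 leukocyte genes, which moved the median of all tested genes from -0.01 to 1.79 (log2) between early CMDMs and classical monocytes, from 0.02 to -0.73 between late and early CMDMs and from 0 to -0.96 between resident-like macrophages and late CMDMs.

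**Figure D1:**
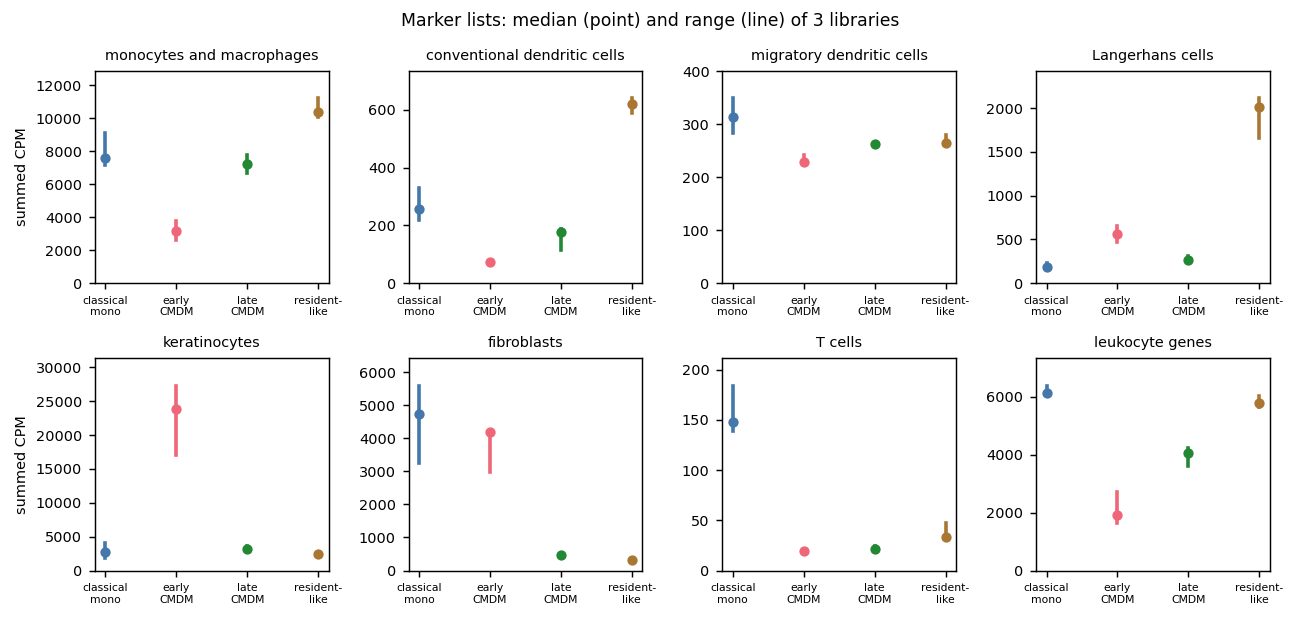
Summed TMM-normalized CPM of marker lists in the 4 fractions, on linear axes from 0, with the median (point) and range (line) of 3 libraries. Keratinocyte markers reach 17100 to 27300 CPM in early CMDMs, fibroblast markers are high in classical monocytes and early CMDMs, and Langerhans cell markers reach 1660 to 2110 CPM in resident-like macrophages.

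Of the 10 genes, 10 differed among the 4 fractions by edgeR's quasi-likelihood test at an adjusted p under 0.05, where 60.8% of all tested genes did. On TMM-scaled counts, 1 was higher and 7 were lower in early CMDMs than in classical monocytes, with a median log2 fold change of -1.25. In the same comparison 24.2% of all genes were higher and 20.6% lower, with a median of -0.01. Late against early CMDMs gave 7 higher and 1 lower (median 0.61), where 14.4% of all genes were higher and 17.5% lower. Resident-like macrophages against late CMDMs gave 7 higher and 2 lower (median 1.14), where 12.7% and 15.4% of all genes were. Without Pdcd1lg2 the counts were 0 and 7, 6 and 1, and 7 and 1 of 9 genes. Relative to the leukocyte genes they were 7 higher and 1 lower, 0 and 2, and 3 and 3 of 10 in these comparisons. With that scaling 91.8% of all genes were higher and 2.02% lower in the first, 1.41% and 60.9% in the second, and 1.87% and 77.7% in the last, so that counts relative to the leukocyte genes are to be read against these shares. The consecutive comparisons share libraries, and each is given by its own values.

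**Figure D2:**
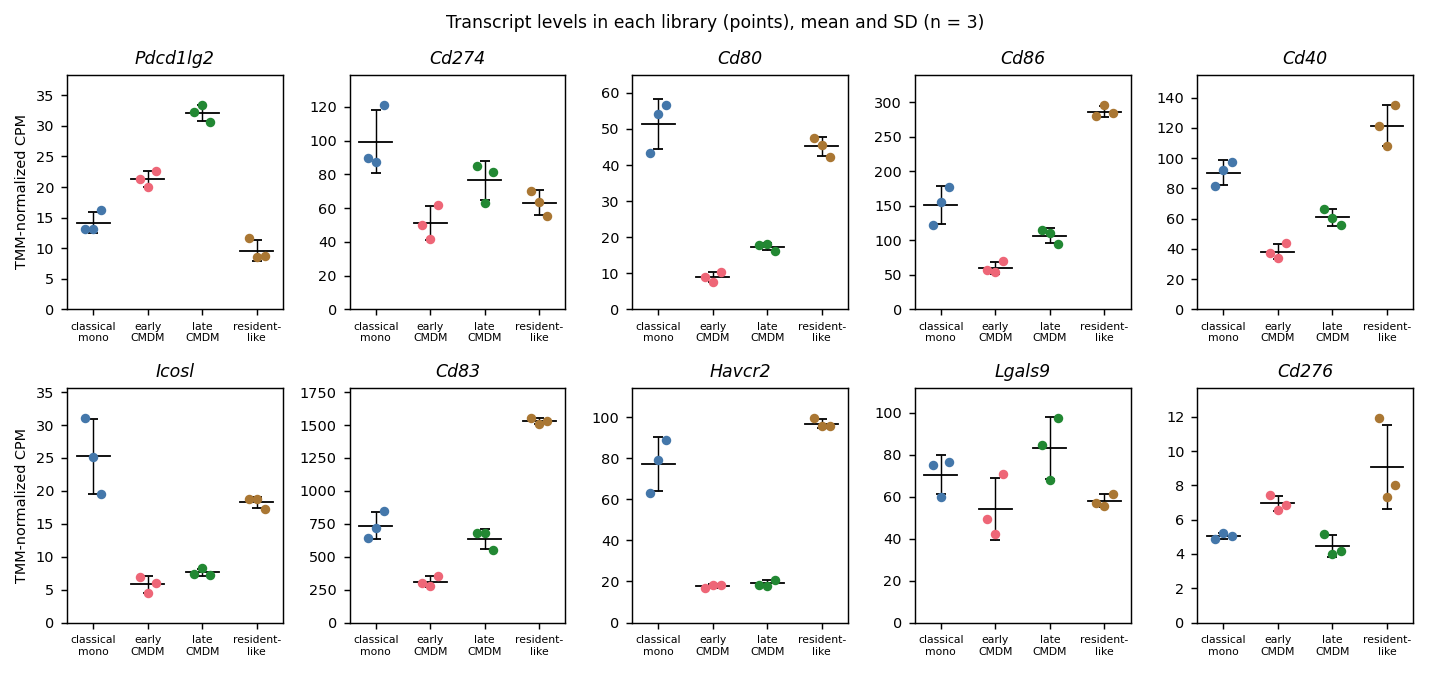
TMM-normalized CPM of the 10 genes in each of the 12 libraries, 1 panel per gene on a linear axis from 0, with mean and SD (n = 3). Pdcd1lg2 is highest in late CMDMs, while Cd80, Icosl and Havcr2 are low in both CMDM fractions, and Cd86, Cd40 and Cd83 are highest in resident-like macrophages.

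Pdcd1lg2, encoding PD-L2, followed the PD-L2 gate at the RNA level. Its TMM-normalized level was 13.2, 13.1 and 16.2 CPM in the 3 classical monocyte libraries, 21.3, 20 and 22.7 in early CMDMs, 32.3, 33.4 and 30.7 in late CMDMs, and 11.6, 8.5 and 8.7 in the resident-like fraction. No libraries of different fractions overlapped. The PD-L2hi fractions were thus above the PD-L2lo ones in every library, with the mean in late CMDMs 2.27-fold that in classical monocytes and 3.34-fold that in resident-like macrophages. Relative to the leukocyte genes, the early and late CMDM means were 5.28 and 4.71 times the classical monocyte mean. The late CMDM mean was then below the early CMDM mean, the reverse of the TMM order. For the other gate, Ly6c2 (Ly6C) averaged 492 CPM in classical monocytes and 49.3 in early CMDMs, both sorted as Ly6Chi. It averaged 19.1 CPM in late CMDMs and 17.5 in the resident-like fraction.

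Cd274, encoding PD-L1, had its highest TMM level outside the PD-L2hi fractions. It measured 89.5, 87.5 and 121 CPM in classical monocytes, 49.8, 41.7 and 61.6 in early CMDMs, 84.8, 63.0 and 81.5 in late CMDMs, and 70.2, 63.8 and 55.4 in the resident-like fraction. Classical monocyte libraries were above all others, and early CMDM libraries overlapped only with resident-like ones. The early CMDM level was 1.95-fold lower than in classical monocytes (log2 fold change -0.96 ± 0.16 SE, edgeR adjusted p = 0.00017), a direction that turned to 0.82 relative to the leukocyte genes. Late CMDMs were 1.5-fold above early CMDMs (0.58 ± 0.16, edgeR adjusted p = 0.0121), and this call was lost without the second early CMDM library (0.45) or the first late CMDM library (0.50), and turned to -0.16 relative to the leukocyte genes. On TMM-scaled counts late CMDMs were not called against classical monocytes (-0.38 ± 0.16, edgeR adjusted p = 0.0803), but were with library size only (-0.42), with a replicate block (-0.38) and, in the opposite direction, relative to the leukocyte genes (0.66). Resident-like macrophages were not called against late CMDMs with TMM (-0.28 ± 0.16, edgeR adjusted p = 0.233), but were lower relative to the leukocyte genes (-1.23, edgeR adjusted p = 5.41e-08). Resident-like macrophages were 1.57-fold below classical monocytes (-0.65 ± 0.16, edgeR adjusted p = 0.00715), with the same sign under every scaling.

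The neighbouring PD-1 ligand genes therefore changed unequally, which a ratio within each library shows without any scaling between libraries. Counts per kilobase of the longest coding transcript (1729 bases for Pdcd1lg2, 3622 for Cd274) gave a Pdcd1lg2:Cd274 ratio of 0.308, 0.313 and 0.28 in classical monocytes and 0.898, 1.01 and 0.773 in early CMDMs. It was 0.799, 1.11 and 0.79 in late CMDMs and 0.348, 0.279 and 0.327 in the resident-like fraction. The means were 0.300 ± 0.0178, 0.894 ± 0.119, 0.900 ± 0.182 and 0.318 ± 0.0354 (SD, n = 3), so early CMDMs were 2.98-fold above classical monocytes and resident-like macrophages 2.83-fold below late CMDMs. Ratios of the PD-L2hi fractions did not overlap those of the PD-L2lo fractions, while early and late CMDMs overlapped. An exact one-sided permutation test of any difference among the fractions, over 15400 partitions, gave p = 0.00558, or 0.00558 adjusted over the 3 ratios examined, where the smallest p possible was 6.49e-05. The numerator shares the PD-L2 gate, so the sort itself favours a difference and this p-value is a description. All 3 ratios were chosen after the values had been seen, a choice that none of their p-values covers.

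**Figure D3:**
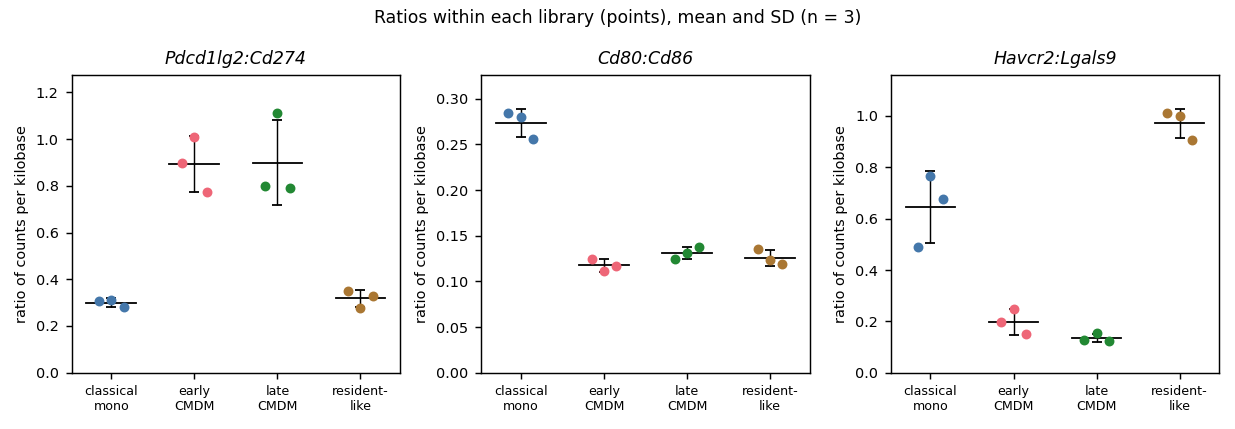
Ratios of counts per kilobase within each library for the gene pairs Pdcd1lg2:Cd274, Cd80:Cd86 and Havcr2:Lgals9, on linear axes from 0, with points for the 12 libraries and mean and SD (n = 3). The Pdcd1lg2:Cd274 ratio is 0.773 to 1.11 in both CMDM fractions and 0.279 to 0.348 in the other two, and the Cd80:Cd86 ratio stands apart only in classical monocytes.

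Cd80 had the deepest drop of the genes between classical monocytes and early CMDMs. It measured 43.4, 54.1 and 56.6 CPM in classical monocytes, 8.8, 7.5 and 10.3 in early CMDMs, 17.8, 18.1 and 16.2 in late CMDMs, and 47.5, 45.6 and 42.3 in the resident-like fraction. Both CMDM fractions were below the other two in every library. Early CMDMs were 5.8-fold below classical monocytes (-2.54 ± 0.13, edgeR adjusted p = 1.01e-09), and remained lower relative to the leukocyte genes (-0.75). The level in late CMDMs was 1.96-fold that in early CMDMs (0.97 ± 0.14, edgeR adjusted p = 4.41e-05; 0.24 and below the threshold relative to the leukocyte genes), and the level in resident-like macrophages 2.59-fold that in late CMDMs (1.37 ± 0.13, edgeR adjusted p = 8.14e-07; 0.41 and still called relative to the leukocyte genes). Classical monocytes and resident-like macrophages overlapped (edgeR adjusted p = 0.309).

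Cd86, encoding the other CD28 and CTLA-4 ligand, was highest in resident-like macrophages. Its levels were 122, 155 and 177 CPM in classical monocytes, 56.4, 53.8 and 70.2 in early CMDMs, 115, 111 and 94.5 in late CMDMs, and 280, 296 and 284 in the resident-like fraction. No fractions overlapped. Resident-like macrophages were 2.69-fold above late CMDMs (1.43 ± 0.13, edgeR adjusted p = 1.04e-06) and 1.89-fold above classical monocytes (0.92 ± 0.13, edgeR adjusted p = 6.89e-05), and higher in both under every scaling, with 0.46 and 1.01 relative to the leukocyte genes. Early CMDMs were 2.52-fold below classical monocytes on TMM-scaled counts (-1.33 ± 0.14, edgeR adjusted p = 7.11e-07) but above them relative to the leukocyte genes (0.46). Late CMDMs were 1.77-fold above early CMDMs (0.83 ± 0.14, edgeR adjusted p = 0.000187), or 0.09 and below the threshold relative to the leukocyte genes.

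The balance of the CD28 ligand transcripts differed between classical monocytes and the other fractions. Per kilobase (3173 bases for Cd80, 2539 for Cd86), the Cd80:Cd86 ratio was 0.284, 0.28 and 0.256 in classical monocytes, 0.125, 0.111 and 0.117 in early CMDMs, 0.124, 0.131 and 0.138 in late CMDMs, and 0.136, 0.123 and 0.119 in the resident-like fraction. Classical monocytes were 2.31-fold above early CMDMs and 2.17-fold above resident-like macrophages without overlap, whereas the other 3 fractions overlapped (exact one-sided permutation test, p = 0.00325, adjusted p = 0.00487 over the 3 ratios). Cd80 transcripts differ in length, from 748 to 3173 bases, so the ratio's absolute value depends on the isoform while its fold between fractions does not, if the isoforms are used alike.

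Cd40, the receptor for T cell CD40L, and Cd83, a surface marker of activated antigen-presenting cells, had the profile of Cd86. Cd40 measured 81.5, 92.0 and 97.5 CPM in classical monocytes, 37.0, 33.6 and 43.6 in early CMDMs, 66.3, 60.3 and 55.5 in late CMDMs, and 121, 108 and 135 in the resident-like fraction. The fractions did not overlap. Resident-like macrophages were 2-fold above late CMDMs (1.00 ± 0.12, edgeR adjusted p = 1.09e-05), which fell to 0.04 and below the threshold relative to the leukocyte genes. Against classical monocytes they were 1.34-fold higher (0.43 ± 0.12, edgeR adjusted p = 0.0129), a call lost without the first classical monocyte library (0.37), without resident-like library 3 (0.34) or with scaling by library size only (0.26). Early CMDMs were 2.37-fold below classical monocytes (-1.25 ± 0.12, edgeR adjusted p = 3.69e-07), and above them (0.55) relative to the leukocyte genes. Late CMDMs were 1.59-fold above early CMDMs (0.67 ± 0.12, edgeR adjusted p = 0.000398), but -0.07 relative to the leukocyte genes.

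Cd83 was the most abundant of the 10 genes in every fraction, at 125 to 618 CPM per kilobase on average, against 23.7 to 113 for Cd86. Its levels were 642, 720 and 845 CPM in classical monocytes, 297, 277 and 356 in early CMDMs, 682, 679 and 548 in late CMDMs, and 1550, 1510 and 1530 in the resident-like fraction. The resident-like libraries were the highest and the early CMDM libraries the lowest, while classical monocytes and late CMDMs overlapped. Resident-like macrophages were 2.41-fold above late CMDMs (1.27 ± 0.13, edgeR adjusted p = 2.44e-06; 0.30 and below the threshold relative to the leukocyte genes) and 2.08-fold above classical monocytes (1.06 ± 0.13, edgeR adjusted p = 1.21e-05, higher under every scaling). Early CMDMs were 2.37-fold below classical monocytes (-1.25 ± 0.13, edgeR adjusted p = 8.78e-07), or above them by 0.54 relative to the leukocyte genes. The level in late CMDMs was 2.05-fold that in early CMDMs (1.04 ± 0.13, edgeR adjusted p = 1.4e-05), and 0.30, below the threshold, relative to the leukocyte genes.

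Icosl, encoding the ligand of ICOS, was low in both CMDM fractions. It measured 31.0, 25.1 and 19.6 CPM in classical monocytes, 7.0, 4.4 and 6.1 in early CMDMs, 7.4, 8.2 and 7.3 in late CMDMs, and 18.7, 18.8 and 17.2 in the resident-like fraction. All CMDM libraries were below all others. Early CMDMs were 4.31-fold below classical monocytes (-2.11 ± 0.18, edgeR adjusted p = 1.04e-07), with -0.31 and no call relative to the leukocyte genes. Resident-like macrophages were 2.38-fold above late CMDMs (1.25 ± 0.18, edgeR adjusted p = 6.37e-05), with 0.29 and no call relative to the leukocyte genes. Late and early CMDMs did not differ at the threshold (edgeR adjusted p = 0.135). The difference between resident-like macrophages and classical monocytes (-0.47 ± 0.16, edgeR adjusted p = 0.0492) was at the threshold and was lost in 10 of the 12 fits without 1 library.

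Havcr2, encoding TIM-3, had a like pattern with a larger step to the resident-like fraction. It measured 63.2, 79.0 and 89.1 CPM in classical monocytes, 16.6, 18.1 and 18.2 in early CMDMs, 18.5, 17.8 and 20.8 in late CMDMs, and 99.4, 95.5 and 95.5 in the resident-like fraction. The CMDM fractions overlapped with each other and with no other fraction. Resident-like macrophages were 5.09-fold above late CMDMs (2.35 ± 0.12, edgeR adjusted p = 1.73e-09), higher under every scaling, with 1.39 relative to the leukocyte genes. Early CMDMs were 4.37-fold below classical monocytes (-2.13 ± 0.12, edgeR adjusted p = 2.1e-09), but only -0.32 and below the threshold relative to the leukocyte genes. Between late and early CMDMs the difference was 0.11 ± 0.12 (edgeR adjusted p = 0.554), and -0.66 with a call relative to the leukocyte genes. The 1.25-fold higher level in resident-like macrophages than in classical monocytes (edgeR adjusted p = 0.0436) was lost in 7 of the 12 fits without 1 library, with DESeq2, DEGES, library size only (0.16), the leukocyte scaling and the pair of fractions fitted alone.

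Lgals9, encoding galectin-9, varied least of the 10 genes on the TMM scale, with 1.54-fold between its highest and lowest fraction. Its levels were 75.2, 60.0 and 76.5 CPM in classical monocytes, 49.2, 42.2 and 70.7 in early CMDMs, 84.6, 67.8 and 97.3 in late CMDMs, and 57.1, 55.4 and 61.4 in the resident-like fraction. The early CMDM libraries spread widely and overlapped those of every other fraction. Late CMDMs were above early CMDMs (0.62 ± 0.17, edgeR adjusted p = 0.0108), and the call was lost without the first (0.55) or second (0.47) early CMDM library or late CMDM library 3 (0.49), and turned to -0.10 relative to the leukocyte genes. Resident-like macrophages were below late CMDMs (-0.52 ± 0.17, edgeR adjusted p = 0.0322), a call lost in 5 of the 12 fits without 1 library (without late CMDM library 1 or 3 or any resident-like library, -0.57 to -0.39). Early CMDMs were not called against classical monocytes (-0.39 ± 0.17, edgeR adjusted p = 0.0794) and stood at 1.38, above them, relative to the leukocyte genes.

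The receptor and its ligand separated the fractions. Per kilobase (2721 bases for Havcr2, 1586 for Lgals9), the Havcr2:Lgals9 ratio averaged 0.645 ± 0.142 in classical monocytes, 0.199 ± 0.0501 in early CMDMs, 0.135 ± 0.0159 in late CMDMs and 0.972 ± 0.0568 in the resident-like fraction (SD, n = 3). Only the CMDM fractions overlapped with each other (exact one-sided permutation test, p = 0.00013, adjusted p = 0.00039 over the 3 ratios). Resident-like macrophages were 7.2-fold above late CMDMs in this ratio.

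Cd276, encoding B7-H3, was the least abundant of the genes, at 1.24 to 2.52 CPM per kilobase. It measured 4.9, 5.2 and 5.1 CPM in classical monocytes, 7.4, 6.6 and 6.8 in early CMDMs, 5.2, 4.0 and 4.2 in late CMDMs, and 11.9, 7.3 and 8.0 in the resident-like fraction. The first resident-like library stood above its replicates, and late CMDMs and classical monocytes overlapped. Resident-like macrophages were 2.05-fold above late CMDMs (1.03 ± 0.19, edgeR adjusted p = 0.000576), with 0.08 and no call relative to the leukocyte genes. They were also 1.8-fold above classical monocytes (0.85 ± 0.18, edgeR adjusted p = 0.00228), higher under every scaling. Late CMDMs were below early CMDMs (-0.65 ± 0.19, edgeR adjusted p = 0.0154), and this call was lost without the first early CMDM library (-0.60) or late CMDM library 2 (-0.58) or 3 (-0.61). Early CMDMs and classical monocytes differed by 0.46 ± 0.18 (edgeR adjusted p = 0.0539), which was called with a replicate block, with DEGES normalization, with the pair of fractions fitted alone and relative to the leukocyte genes (2.27).

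**Figure D4:**
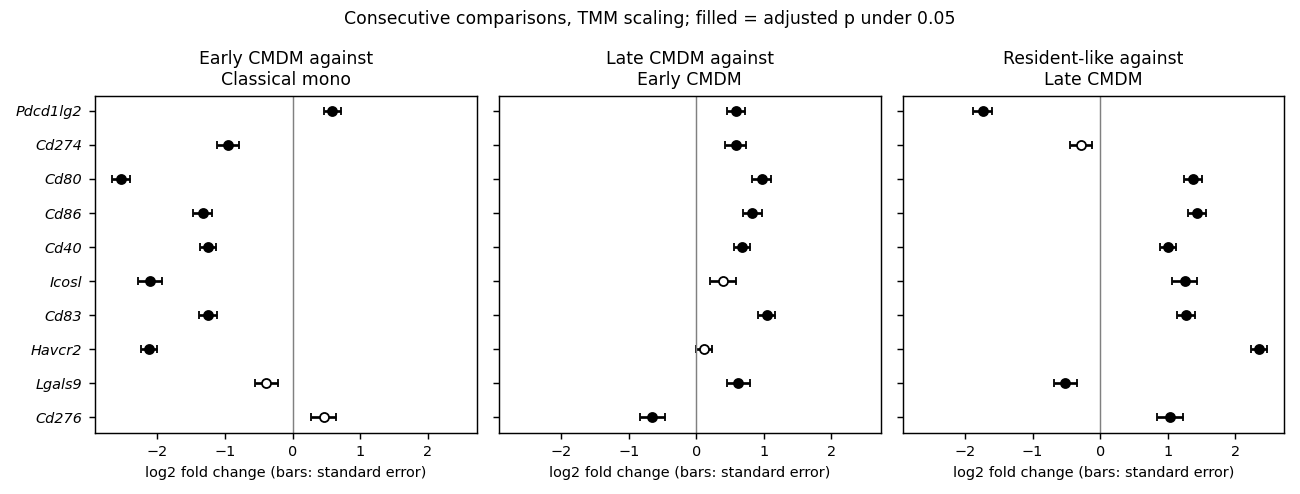
Log2 fold change (points) with standard error (bars) of the 10 genes in the 3 consecutive comparisons on TMM-scaled counts, where filled points have an edgeR adjusted p under 0.05. Between early CMDMs and classical monocytes 7 genes are lower, of which Cd274, Cd86, Cd40 and Cd83 turn higher relative to leukocyte genes.

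**Figure D5:**
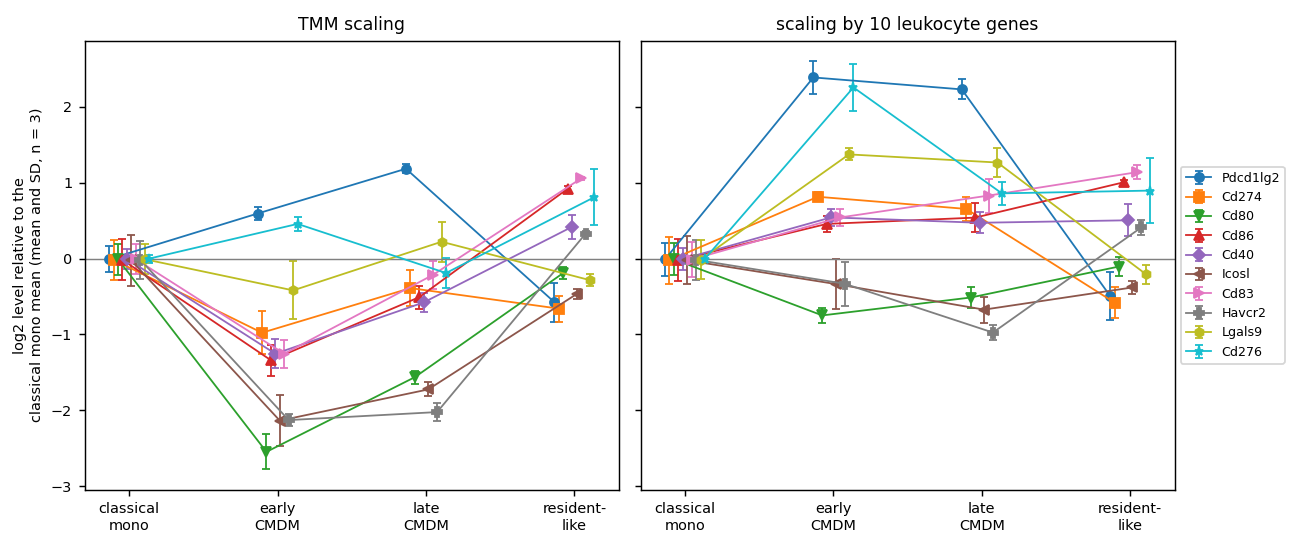
Log2 level of the 10 genes relative to their classical monocyte mean (points, mean; bars, SD; n = 3) with TMM scaling (left) and with scaling by 10 leukocyte genes (right). The leukocyte scaling raises all genes in early CMDMs, so that Cd80, Icosl and Havcr2 are the genes left below 0 there.

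The comparisons that skip a fraction gave the following. In late CMDMs against classical monocytes 1 gene, Pdcd1lg2, was higher and 5 were lower, where 18.1% of all genes were higher and 17.5% lower. The lower genes were Cd80, Cd86, Cd40, Icosl and Havcr2, of which Cd86 (0.55) and Cd40 (0.48) turned higher relative to the leukocyte genes. Cd80 (-1.56 ± 0.13), Icosl (-1.72 ± 0.18) and Havcr2 (-2.02 ± 0.12) were lower under every scaling. In resident-like macrophages against early CMDMs 6 were higher and 1, Pdcd1lg2, was lower, where 21.4% of all genes were higher and 25.1% lower. Havcr2 had the largest difference (2.46 ± 0.12, 5.49-fold), followed by Cd80 (2.35 ± 0.13), Cd83 (2.30 ± 0.13) and Cd86 (2.25 ± 0.14), all with an edgeR adjusted p of 4.42e-09 or lower and all higher under every scaling, at 0.73, 0.65, 0.60 and 0.55 relative to the leukocyte genes. Cd40 (1.67 ± 0.12) and Icosl (1.64 ± 0.18) stood at -0.03 and -0.06 relative to the leukocyte genes. In resident-like macrophages against classical monocytes, where the leukocyte scaling moved the median of all genes only to 0.09, 5 were higher (Cd86, Cd40, Cd83, Havcr2 and Cd276) and 3 lower (Pdcd1lg2, Cd274 and Icosl), against 10.8% and 12.9% of all genes. Without the first classical monocyte library, or without resident-like library 3, 5 of these 8 calls were left.

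Markers of other antigen-presenting cells moved with some of these results. Summed conventional dendritic cell markers were 590 to 639 CPM in resident-like macrophages, 217 to 328 in classical monocytes, 116 to 189 in late CMDMs and 70 to 75.2 in early CMDMs. Of these 7 markers, 4 were higher and 0 lower in resident-like macrophages than in late CMDMs, and 0 were higher and 6 lower in early CMDMs than in classical monocytes. In resident-like macrophages against classical monocytes, however, 1 was higher and 4 were lower, although the sum was higher. Cd209a, also expressed by monocyte-derived cells, made up 555 CPM of the resident-like sum, Flt3 27 and Zbtb46 12. Langerhans cell markers summed to 1660 to 2110 CPM in resident-like macrophages, 236 to 306 in late CMDMs, 470 to 651 in early CMDMs and 151 to 230 in classical monocytes. In resident-like macrophages 3 of 4 were higher than in late CMDMs and 4 of 4 higher than in classical monocytes. In early CMDMs 4 of 4 were also higher than in classical monocytes, where Cd86, Cd83, Cd40 and Havcr2 were lower on the TMM scale. Of the early CMDM sum Cdh1 made up 266 CPM and Epcam 148 on average, in the fraction with the highest keratinocyte markers. Cd207 (langerin) averaged 819 CPM in resident-like macrophages, 64.4 in early CMDMs and 38.2 in classical monocytes. Summed migratory dendritic cell markers were 262 to 280 CPM in resident-like macrophages and 259 to 265 in late CMDMs. Tmem123 made up 182 and 150 CPM of these sums on average. Of these 7 markers 1 was higher and 4 were lower in resident-like macrophages than in late CMDMs. In late against early CMDMs 4 were higher and 1 lower. From classical monocytes to resident-like macrophages, Ccr7 averaged 35.2, 7.31, 29.2 and 30.6 CPM and Fscn1 7.97, 9.26, 20 and 8.89. None of the defining markers of these lists was at 0, and their part in the levels of Cd86, Cd83, Cd40 and Havcr2 was not tested. Markers of the labelled cell type, monocytes and macrophages, summed to 2610 to 3780 CPM in early CMDMs and to 6670 CPM or more elsewhere. Lyz2 made up 1760 CPM of this sum in early CMDMs, 5810 in classical monocytes and 7310 in resident-like macrophages on average. The paper's single-cell clusters assign resident-like macrophages as Adgre1-high and Ccr2-low. Here Ccr2 averaged 439 CPM in the resident-like fraction, 107 in late CMDMs and 390 in classical monocytes. Adgre1 averaged 183, 201 and 84.7 CPM in the same order. In resident-like macrophages against late CMDMs 2 of the 10 markers were higher, 1 was lower and 7 were not called. Of the 10 markers 1 was higher, 5 were lower and 4 were not called in early CMDMs against classical monocytes.

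T cell markers and the summed T cell co-signalling receptors were both highest in classical monocytes. These receptors summed to 270 to 387 CPM there, 45.3 to 55.1 in early CMDMs, 44.4 to 53.4 in late CMDMs and 88.3 to 100 in resident-like macrophages. Single receptors differed, with Cd226 at 5.82 CPM in classical monocytes and 29.0 in resident-like macrophages. T cell markers summed to 139 to 184 CPM in classical monocytes, 19.5 to 20.1 in early CMDMs, 20.6 to 24.3 in late CMDMs and 32.8 to 47.1 in resident-like macrophages, and 6 of 6 were lower in early CMDMs than in classical monocytes. Of 14 T cell co-signalling receptor genes 13 were tested, and 13 of 13 were lower in early CMDMs (median -3.32), or 11 lower and 2 higher relative to the leukocyte genes, where 2.02% of all genes were lower and 91.8% higher. The largest differences above 5 CPM were those of Cd27, at 54.4 CPM in classical monocytes and 2.34 in early CMDMs (-4.53 ± 0.19, edgeR adjusted p = 1.45e-10), and Btla, at 21.4 and 0.963 CPM (-4.46 ± 0.23, edgeR adjusted p = 8.9e-10). In late against early CMDMs 2 were higher and 1 lower (1 and 5 relative to the leukocyte genes), with Cd28 at 15.1 against 6.32 CPM (1.25 ± 0.21) and Tnfrsf18 at 9.04 against 21.5 (-1.24 ± 0.23). In resident-like macrophages 7 were higher than in late CMDMs and 1 was lower (2 and 5 relative to the leukocyte genes), with the largest differences above 5 CPM for Cd226, a receptor shared by T, NK and some myeloid cells, at 29.0 against 2.45 CPM (3.56 ± 0.23), and for Tnfrsf9 (4-1BB), at 12.4 against 4.01 (1.63 ± 0.17). Pdcd1 itself, the receptor of PD-L1 and PD-L2, averaged 4.64 CPM in classical monocytes, 0.231 in early CMDMs, 0.275 in late CMDMs and 1.26 in the resident-like fraction.

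Other ligands of the same classes were called in both directions. Of 6 tested B7 and butyrophilin genes 1 was higher and 2 were lower in early CMDMs than in classical monocytes, and 6 were higher relative to the leukocyte genes, where 91.8% of all genes were. Vsir, encoding the checkpoint protein VISTA, was at 75.5 CPM in early CMDMs against 127 in classical monocytes (-0.75 ± 0.15, turning to 1.01 relative to the leukocyte genes) and 134 in late CMDMs (0.82 ± 0.15, then 0.11 and below the threshold). Btnl10, a butyrophilin-like gene, was at 4.5 against 6.93 CPM in the first of these comparisons (-0.62 ± 0.19, turning to 1.22) and at 7.55 in resident-like macrophages against 4.49 in late CMDMs (0.76 ± 0.19, turning to -0.20). Counts for this list were 2 higher and 0 lower in late against early CMDMs and 1 and 1 in resident-like macrophages against late CMDMs, or 0 and 1, and 0 and 4, relative to the leukocyte genes, where 60.9% and 77.7% of all genes were lower.

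Of 13 tested co-signalling ligands of the TNF, nectin and SLAM families, 3 were higher and 8 lower in early CMDMs than in classical monocytes, 5 higher and 3 lower in late than in early CMDMs, and 5 higher and 3 lower in resident-like macrophages than in late CMDMs. Relative to the leukocyte genes these counts were 11 and 1, 1 and 4, and 3 and 8, where 91.8% of all genes were higher in the first comparison and 60.9% and 77.7% lower in the others. Nectin2, an adhesion molecule that binds CD226 and is also expressed by epithelium, averaged 74.5 CPM in early CMDMs against 12.5 in classical monocytes (2.58 ± 0.20) and 21.2 in late CMDMs (-1.81 ± 0.19), in the fraction with the highest keratinocyte markers. Cd48, a SLAM family ligand, was lower in early CMDMs than in classical monocytes (47.5 against 115 CPM, -1.28 ± 0.15, turning to 0.50 relative to the leukocyte genes), and Ly9 was higher in late than in early CMDMs (16.0 against 6.98 CPM, 1.19 ± 0.26, then 0.47 and below the threshold). In resident-like macrophages Tnfsf9, the ligand of 4-1BB, averaged 110 CPM against 33.9 in late CMDMs (1.69 ± 0.16), and Pvr (CD155), a ligand of CD226 and TIGIT, 500 against 182 (1.46 ± 0.14).

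Of 14 binding partners and regulators of the ligands, 3 were higher and 7 lower in early CMDMs than in classical monocytes, 7 higher and 2 lower in late than in early CMDMs, and 4 higher and 3 lower in resident-like macrophages than in late CMDMs. Relative to the leukocyte genes these counts were 9 and 1, 3 and 6, and 0 and 11, against 91.8% of all genes higher, 60.9% lower and 77.7% lower. Timd4 (TIM-4), a phosphatidylserine receptor of resident macrophages, averaged 13.8, 3.58, 9.82 and 24.1 CPM along the fractions from classical monocytes to resident-like macrophages, with each consecutive difference called, of which the first and the last were below the threshold relative to the leukocyte genes (-0.14 and 0.33). Neo1 (neogenin), part of the receptor complex of the PD-L2 partner RGMb and widely expressed outside the immune system, averaged 68.8 CPM in early CMDMs and 9.04 to 17.1 in the other fractions.

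The signalling lists tied to these ligands differed in their counts. Of 10 genes of the IL-4 receptor and STAT6, 2 were higher and 6 lower in early CMDMs than in classical monocytes, against 9 and 0 relative to the leukocyte genes, where 91.8% of all genes were higher. The feedback inhibitor Cish was higher (99.3 against 29.9 CPM, 1.73 ± 0.15, edgeR adjusted p = 1.11e-07) and the shared cytokine receptor chain Il2rg lower (40.5 against 127 CPM, -1.65 ± 0.14, but 0.13 and below the threshold relative to the leukocyte genes). Of this list 5 were higher and 2 lower in late than in early CMDMs, and 3 higher and 1 lower in resident-like macrophages than in late CMDMs, or 1 and 5, and 0 and 8, relative to the leukocyte genes, where 60.9% and 77.7% of all genes were lower. Irf4, a transcription factor of alternative activation, was at 46.7 CPM in late CMDMs against 20.5 in early CMDMs (1.18 ± 0.13) and 111 in resident-like macrophages (1.25 ± 0.12, then 0.28 and below the threshold). Il13ra1, which pairs with the IL-4 receptor alpha chain, was at 57.0 CPM in late CMDMs against 121 in early CMDMs (-1.08 ± 0.11) and 108 in resident-like macrophages (0.92 ± 0.11, then -0.04).

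Of 15 genes of CD40 and NF-kB signalling, 0 were higher and 11 lower in early CMDMs than in classical monocytes (median -0.84), 3 higher and 0 lower in late than in early CMDMs, and 12 higher and 0 lower in resident-like macrophages than in late CMDMs (median 0.46). Traf1, an adaptor induced by NF-kB, averaged 409 CPM in classical monocytes, 83.9 in early CMDMs (-2.29 ± 0.15), 94.2 in late CMDMs and 289 in the resident-like fraction (1.62 ± 0.15 against late CMDMs, edgeR adjusted p = 8.68e-07). Bcl2a1a, an anti-apoptotic target whose reads could be split among near-identical copies, was at 60.6 CPM in classical monocytes, 13.9 in early CMDMs (-2.12 ± 0.15), 16.9 in late CMDMs and 92.4 in the resident-like fraction (2.45 ± 0.15). In late against early CMDMs Birc3 (181 against 122 CPM, 0.56 ± 0.12) and Relb (58.3 against 42.4 CPM, 0.46 ± 0.10) had the largest differences. Relative to the leukocyte genes the counts were 12 higher and 1 lower, 0 and 12, and 2 and 9, where 91.8% of all genes were higher, 60.9% lower and 77.7% lower. On that scale, among the named genes Birc3 and Relb stood at -0.17 and -0.28 in late against early CMDMs and Bcl2a1a at -0.32 in early CMDMs against classical monocytes, all below the threshold. RLE, library size and DEGES scaling left the direction of each of these 3 medians as it was with TMM.

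Likeness of profile was measured, as a description, by the root mean square difference of log2 CPM after centring each gene on its mean over the 12 libraries, among 12765 genes. Within the 10 genes, Cd86 and Cd83 were the closest pair (0.11), followed by Cd86 and Cd40 (0.25), and Pdcd1lg2 and Havcr2 the most distant (1.74). Cd83 was also the nearest of all 12765 genes to Cd86, followed by Tm6sf1 (0.12) and 1700016P03Rik (0.17), while Cd86, Gm49662 (0.13) and Tm6sf1 (0.15) were the nearest to Cd83. Nearest to Cd274 were Apobec3 (0.12), N4bp2l1 (0.13) and Jak3 (0.15), a kinase of the shared cytokine receptor chain. Nearest to Pdcd1lg2 were Gm48942 (0.22), Gm49797 (0.24) and Igf2bp2 (0.26), an RNA-binding protein, so that no gene followed Pdcd1lg2 as closely as Cd83 followed Cd86. The libraries share their scaling and depth across genes, so these values carry no test.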

How the data were processed

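mRNA of 4 Mo-Mac fractions was isolated on oligo(dT) beads and sequenced as 12 libraries, 3 for each fraction. The deposited values are raw counts per gene symbol. According to the methods and the submitters' processing notes, the authors trimmed reads with cutadapt 4.1, mapped them to reference RNA of GRCm38 with Bowtie2 2.4.5 and counted reads per gene, and the deposited counts carry no normalization. Reads shared by near-identical copies could be split by this mapping. All 12 columns of counts were used (0 unused), and each library took its fraction from its labels. The methods name TCC, an edgeR-based package, for normalization and testing.

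These counts were scaled by TMM, filtered with filterByExpr and fitted together, 1 coefficient for each of the fractions, by the robust quasi-likelihood method of edgeR 4.0.16 (R 4.3.3, biological coefficient of variation 13.2%). Of 37775 genes 22118 were tested in 6 comparisons and in 1 test of any difference, with Benjamini-Hochberg adjustment over all tested genes and a threshold of 0.05. The log2 fold change divided by the root of its F statistic gave the standard error. Levels are TMM-normalized CPM, and levels between genes were compared per kilobase of the longest coding transcript in GENCODE M21. Profiles used a prior count of 2 and genes above 5 CPM. Ratios were tested by exact permutation in Python 3.11.15. Chi-square values between replicates, divided by their degrees of freedom, were 4.24 to 21.9, and no library was treated as a copy of another.

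Alternatives were RLE factors, library size only, DEGES (TMM without called genes), scaling by the geometric mean of 10 leukocyte genes, DESeq2 1.42.0, no filter, a replicate block, the pair of fractions fitted alone and leaving out each library. The 10 genes, the pathway and marker lists, the motifs and the leukocyte scaling were chosen with earlier results of these data known, and the ratios after their values had been seen. Of each pathway list the text names, per consecutive comparison, the 2 called genes above 5 CPM with the largest difference, and for Pdcd1lg2, Cd274, Cd86 and Cd83 the 3 genes of nearest profile. Pdcd1, Cd209a, Flt3, Zbtb46, Cd207, Cdh1, Epcam, Tmem123, Ccr7, Fscn1, Lyz2, Ccr2, Adgre1, Ly6c2, Ly6g, Laptm5, Fcer1g and Ptprc were named outside this rule. A pathway list and a motif are not reported here. Tested on simulated data for early CMDMs against classical monocytes, with 200 of 21618 genes changed 2-fold, the fit recovered 154 and made 11 false calls. The simulated libraries held no wider shift in composition between fractions, so this check says nothing of the choice of scaling.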

Additional observations from a re-analysis of the deposited data

How the results depend on the processing

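Scaling by leukocyte genes reversed 21 of the 60 gene and comparison values. Relative to 10 leukocyte genes, early CMDMs against classical monocytes stood at 0.82 for Cd274, 0.46 for Cd86, 0.55 for Cd40, 0.54 for Cd83 and 1.38 for Lgals9 (log2), each reversed. Late against early CMDMs reversed to -0.16 for Pdcd1lg2, -0.16 for Cd274, -0.07 for Cd40, -0.35 for Icosl, -0.66 for Havcr2 and -0.10 for Lgals9. Late CMDMs against classical monocytes reversed to 0.66 for Cd274, 0.55 for Cd86, 0.48 for Cd40, 0.84 for Cd83 and 0.86 for Cd276. Resident-like macrophages against early CMDMs reversed to -1.39 for Cd274, -0.03 for Cd40, -0.06 for Icosl, -1.58 for Lgals9 and -1.33 for Cd276. With this scaling 2 of the 10 genes were called in late against early CMDMs, where 62.3% of all genes were. In late CMDMs against classical monocytes 10 were called, where 82% of all genes were. In resident-like macrophages against classical monocytes 5 were called, where 9.06% of all genes were higher and 8.55% lower. Of all genes, 20746, 13783, 17592, 18135 and 20524 were called in the comparisons other than resident-like macrophages against classical monocytes, in the order early against classical, late against early, resident-like against late, late against classical and resident-like against early, and 21339 in the test of any difference. The share of calls that were higher moved with it, from 54% to 97.9% in early CMDMs against classical monocytes. By construction this scaling sets the geometric mean of the leukocyte genes, lower in early CMDMs on the TMM scale, to equal levels. Whether TMM or this scaling is nearer to the levels in the sorted cells was not tested.

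Lgals9 in resident-like macrophages against early CMDMs, which was not called, stood at -0.06 with library size only and at -0.02 with DEGES, and at -0.05 to 0.35 when each library was left out. The number of genes called between resident-like macrophages and classical monocytes was 5 to 8 when each library was left out, with 5 without classical monocyte library 1 and 5 without resident-like library 3. Of the 60 gene and comparison values, 60 kept direction and side of the threshold with RLE factors, 59 with DESeq2, 59 with no filter, 57 with DEGES, 57 with the pair fitted alone, 55 with library size only and 24 with the leukocyte scaling. Lgals9 in resident-like macrophages against late CMDMs was lost with no filter (-0.52, edgeR adjusted p = 0.0518). Of 720 values with 1 library left out, 681 were kept, 32 lost the call, 6 gained it and 1 reversed.

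The labels do not say whether libraries of the same replicate number share mice, and the main fit did not pair them. Over 18 same-number pairs the correlation of deviations was -0.1 to 0.25, with 4 over 0.1, and 9 of 12 libraries correlated best with their own number. With a replicate block 57 values were kept and 3 gained a call, namely Lgals9 (-0.40, edgeR adjusted p = 0.00631) and Cd276 (0.45, edgeR adjusted p = 0.0358) in early CMDMs against classical monocytes and Cd274 (-0.38, edgeR adjusted p = 0.0344) in late CMDMs against classical monocytes. When each library was left out, the Pdcd1lg2:Cd274 ratio of early CMDMs to classical monocytes stayed between 1.48 and 1.67 (log2), the Cd80:Cd86 ratio between -1.26 and -1.18, and the Havcr2:Lgals9 ratio of resident-like macrophages to late CMDMs between 2.80 and 2.95, an alternative added after the data had been seen. Depth did not limit the genes, whose lowest count in any library was 62.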

Other observations

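Lists of other cell types not set beside a result above gave the following. Summed fibroblast markers were 3250 to 5590 CPM in classical monocytes and 2990 to 4210 in early CMDMs, against 478 to 499 in late CMDMs and 276 to 358 in the resident-like fraction. Endothelial markers ranged from 45.8 to 149 CPM over the 12 libraries, and 4 of 4 were lower in resident-like macrophages than in late CMDMs. Basophil and mast cell markers were 28.6 to 47.8 CPM in resident-like macrophages and 6.54 to 25.5 elsewhere, with 5 of 5 tested higher in resident-like macrophages than in late CMDMs. Neutrophil markers were 75 to 137 CPM in the 12 libraries, while Ly6g had 0 counts in 3 of the 4 fractions and at most 7 in a classical monocyte library. B cell markers were 5.26 to 11.3 CPM, with 2 of 4 too low to be tested. Their part in the levels of the 10 genes was not tested.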
